A study of Mus musculus with 14 samples.

Results

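A set of 9 genes that encode chemokine receptors of leukocytes was followed across 14 mouse mammary tumors. These were *Ccr1*, *Ccr2*, *Ccr7*, *Cxcr2*, *Cxcr3*, *Cxcr4*, *Cxcr5*, *Cxcr6* and *Cx3cr1*. They were picked by symbol, with no cutoff on a measured value, and each matched 1 of the 56414 genes of the deposited table. All 9 passed the filter on low values (a group mean of 10 normalized counts or more in some group) and were tested in every comparison.

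Chemokine receptors are G protein-coupled receptors with which leukocytes read gradients of chemokines and move along them. The set of receptors that a cell carries is typical of its lineage and state, so that monocytes, neutrophils, lymphocytes that home to lymph nodes and effector T cells are guided by different ligands. In tumors, these receptors are known for the recruitment of myeloid cells and of cytotoxic lymphocytes, and *Cxcr4* is also carried by cancer cells.

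Tumors came from C57Bl/6 mice and were either induced in the host or grafted. M/D-driven tumors arose in female mice that were 6 to 9 weeks old when they received a pellet with 50 mg of medroxyprogesterone acetate (MPA, a progestin) releasing its content over 90 days, followed by gavages of the carcinogen DMBA (200 µL at 5 mg per mL in corn oil). AT3 tumors grew from 1000000 AT3 cells, a mouse mammary carcinoma line, injected subcutaneously into C57Bl/6 hosts, whose age the labels do not give. Mice of both models entered the groups once a tumor measured 0.25 cm2, and treated mice then drank water with 0.5% nicotinamide (NAM, a form of vitamin B3) for 10 days, whereas untreated mice received no agent. The 4 groups comprised 8 M/D-driven tumors (4 untreated, 4 NAM-treated) and 6 AT3 tumors (3 untreated, 3 NAM-treated), all profiled as bulk polyA RNA. M/D-driven tumors carry the hormone and carcinogen of their induction in both groups, and all AT3 tumors stem from 1 cell line.

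Between 40936868 and 84178009 reads per tumor were recovered from the deposited values. One tumor stood apart, as NAM-treated M/D-driven tumor 1 had the highest value of the 8 M/D-driven tumors for 10 of 12 pan-leukocyte genes, 7 of 8 B cell genes and 6 of 7 precursor B cell genes, and the lowest for 10 of 10 epithelial genes. Its summed normalized count over the precursor B cell genes was 226129, against 647.3 to 1355 in the other 7 M/D-driven tumors, and over the epithelial genes it was 8538, against at least 278685. This tumor is also the only one the labels place in experiment 2, while the other 7 M/D-driven tumors belong to experiment 1 and the AT3 tumors to experiment 3. Leaving it out is therefore also the comparison within experiment 1, and each receptor's NAM effect in M/D-driven tumors is given with and without it. Among the 9 receptors it had the highest count of the 8 tumors for *Cxcr4*, *Ccr7* and *Cxcr5* and the lowest for *Ccr1*, *Ccr2*, *Cxcr3* and *Cxcr6*.

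**Figure D1:**
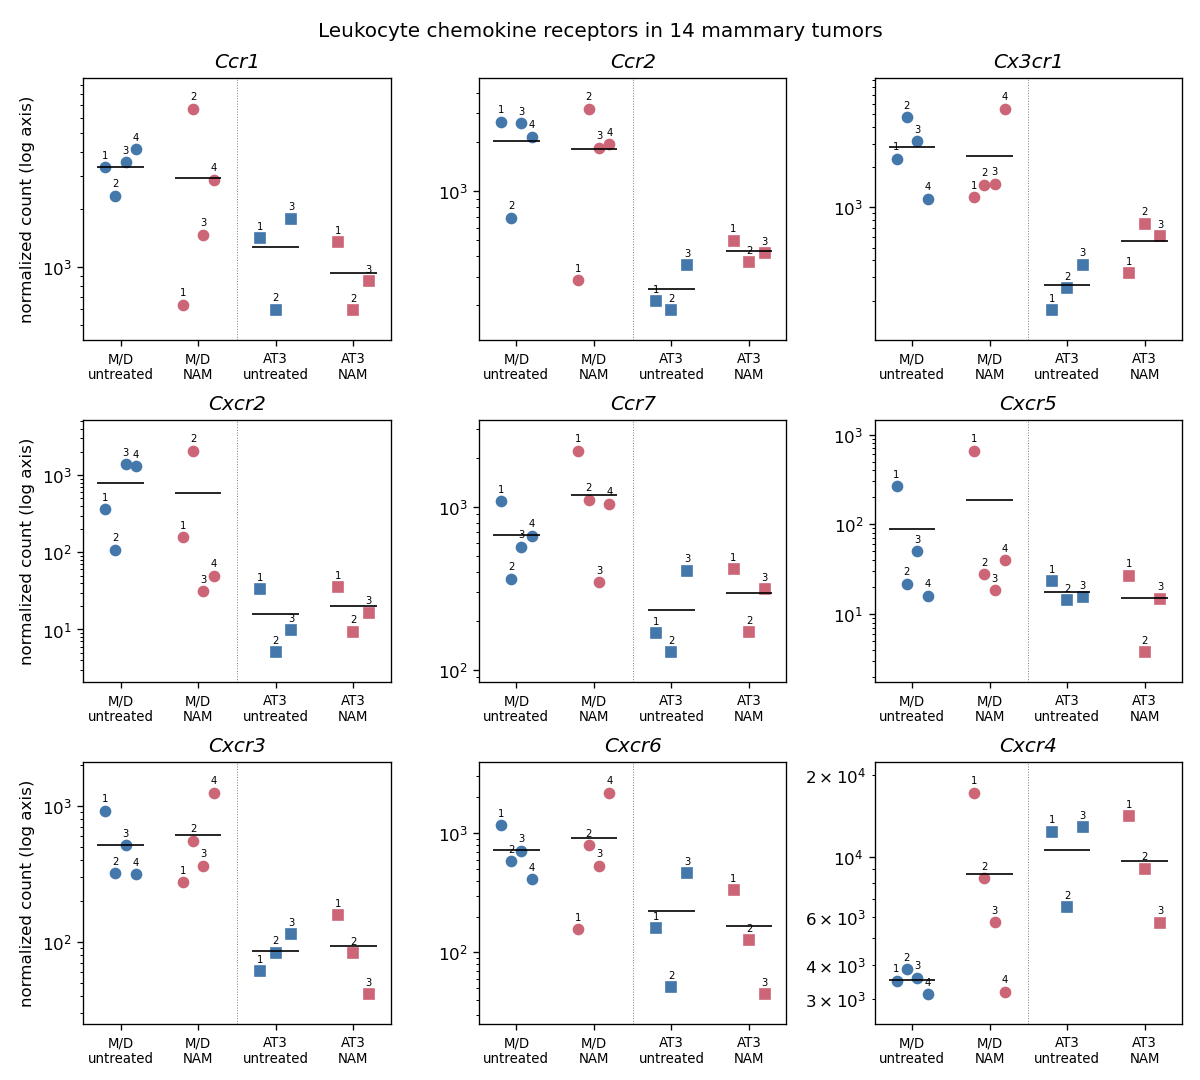
Normalized counts (log axis) of the 9 receptors in each tumor, with 1 panel per gene, circles for M/D-driven and squares for AT3 tumors, blue for untreated and red for NAM-treated, the replicate number above each point and a line at the mean of the group. Models were normalized apart, so levels are to be compared within a model. In M/D-driven tumors, *Cxcr4* lay between 3113 and 3849 in the untreated tumors and reached 17244 with NAM.

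Per kilobase of transcript, *Cxcr4* was the receptor with the highest level and *Ccr1* the next in each of the 4 groups. In untreated M/D-driven tumors, *Cxcr4* stood at 1945 ± 169 normalized counts per kb and *Ccr1* at 1180 ± 261 (SD, n = 4), and no tumor had them in overlapping ranges. *Cx3cr1* followed at 631 ± 333 per kb. *Cxcr6*, *Ccr2*, *Ccr7*, *Cxcr3* and *Cxcr2* came next, at means of 259 to 377 per kb. From *Cx3cr1* to *Cxcr2*, the means of neighbors in this order differed by less than the larger of their SDs. *Cxcr5*, the receptor of B cells and follicular helper T cells for CXCL13, had the lowest mean at 31.1 ± 41.9 per kb. Its values in single tumors still overlapped those of *Cxcr2*. In untreated AT3 tumors the distance was wider, with *Cxcr4* at 5863 ± 1958 per kb, *Ccr1* at 448 ± 215, *Cxcr5* at 6.19 ± 1.71 and *Cxcr2* at 5.27 ± 4.97 (SD, n = 3). The last 2 overlapped with each other and with no other receptor.

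The starts of 3 receptor genes are shown, picked by expression results given below. None of those results uses the sequences, and a link between sequence and expression was not tested. *Cxcr4* was lower in M/D-driven than in AT3 tumors, unlike the other 8 receptors, whereas *Ccr2* and *Cx3cr1* passed the thresholds with NAM in AT3 tumors. Each window runs from 250 bases before to 50 bases after the start of the gene in RefSeq (GRCm38.p6), is written 5′ to 3′ on the strand of the gene, and has each CG dinucleotide in capitals. The windows are chr1:128592250-128592549 (minus strand) for *Cxcr4*, chr9:124101933-124102232 (plus strand) for *Ccr2* and chr9:120068247-120068546 (minus strand) for *Cx3cr1*.
Cxcr4: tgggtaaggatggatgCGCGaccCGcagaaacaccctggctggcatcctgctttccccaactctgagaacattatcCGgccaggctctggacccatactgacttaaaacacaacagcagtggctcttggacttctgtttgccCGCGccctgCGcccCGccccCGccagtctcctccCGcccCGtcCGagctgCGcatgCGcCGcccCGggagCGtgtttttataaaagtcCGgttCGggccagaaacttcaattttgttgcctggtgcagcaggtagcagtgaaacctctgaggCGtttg
Ccr2: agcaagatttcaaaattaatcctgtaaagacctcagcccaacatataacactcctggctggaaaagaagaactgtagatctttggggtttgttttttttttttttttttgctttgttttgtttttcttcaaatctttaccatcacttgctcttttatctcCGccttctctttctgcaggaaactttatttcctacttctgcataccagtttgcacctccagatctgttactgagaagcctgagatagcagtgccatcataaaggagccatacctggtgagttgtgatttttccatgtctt
Cx3cr1: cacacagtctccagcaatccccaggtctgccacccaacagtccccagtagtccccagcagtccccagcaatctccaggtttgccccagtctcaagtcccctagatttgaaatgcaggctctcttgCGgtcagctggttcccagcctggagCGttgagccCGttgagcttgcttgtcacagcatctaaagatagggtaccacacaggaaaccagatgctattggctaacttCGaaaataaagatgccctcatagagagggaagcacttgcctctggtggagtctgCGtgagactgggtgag
The *Cxcr4* window holds 20 CG dinucleotides, more than 73.5% of the 32851 windows of the table, whose median is 7. It also holds the letters TATAAA, searched on both strands, as do 13.6% of all windows, and its match overlaps the one on the other strand. The *Cx3cr1* window holds 5 CG dinucleotides and the *Ccr2* window 1. Entries were found for 7 of the 9 receptors, and the other windows held 1 (*Ccr1*) to 4 (*Cxcr3*). *Cxcr6*, *Ccr1* and *Ccr2* lie in 1 stretch of chromosome 9, between positions 123806474 and 124113557 of mm10, together with *Xcr1*, *Ccr1l1* and *Ccr3*.

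The first question was how far receptor expression differs between the models without NAM. On a common scale for the 14 tumors, 4 of the 9 receptors were higher in untreated M/D-driven than in untreated AT3 tumors (*Cxcr2*, *Cx3cr1*, *Ccr2* and *Cxcr3*), and *Cxcr4* was lower. The thresholds were an unadjusted limma p up to 0.05 together with a change of 1.5-fold or more, and 51.4% of the 22837 genes tested passed them in this comparison, 27% as higher and 24.4% as lower. The same 5 receptors also passed an adjusted p of 0.05, as did 44.1% of all genes. They were the 5 whose groups did not overlap, which held for 51.7% of all genes. The share of receptors past the thresholds was thus near that of all genes, while the median log2 fold change was 1.70 over the receptors and 0.08 over all genes. With the values as deposited, each model on its own scale, *Ccr1* (1.51), *Ccr7* (1.59) and *Cxcr6* (2.10) joined the higher receptors, which made 7 higher and 1 lower. That scaling moved the median of all genes from 0.08 to 0.49 and the split of all genes from 6163 higher and 5564 lower to 8003 higher and 3710 lower. Model, experiment and site of growth cannot be told apart here. In bulk RNA, fewer cells of a type and less RNA per cell cannot be told apart either.

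Some lists of leukocyte genes moved with this contrast and others did not. Of the 12 pan-leukocyte genes, 8 were higher in untreated M/D-driven tumors and 0 lower, with a median log2 fold change of 1.48. Of 11 T cell genes, 9 were higher (median 2.03), and of 9 macrophage genes, 6 (median 1.02). Of 6 monocyte genes, 2 were higher, of 9 neutrophil genes tested, 3, and of 8 dendritic cell genes, 3, where 27% of all genes were. Of 8 B cell and 7 natural killer cell genes, 0 were called (medians 0.43 and −0.71). Of 7 precursor B cell genes, 0 were higher and 1 was lower (median −0.64). All 5 adipocyte genes, 5 of 7 endothelial or fibroblast genes and 4 of 10 epithelial genes were higher as well. As deposited, the sum over the pan-leukocyte genes ranged from 79335 to 101994 in untreated M/D-driven and from 17688 to 34373 in untreated AT3 tumors, with 0 genes of the list at 0. These sums are on each model's own scale, so their distance does not measure the difference between the models. The part of these cells in the receptor differences was not tested.

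**Figure D2:**
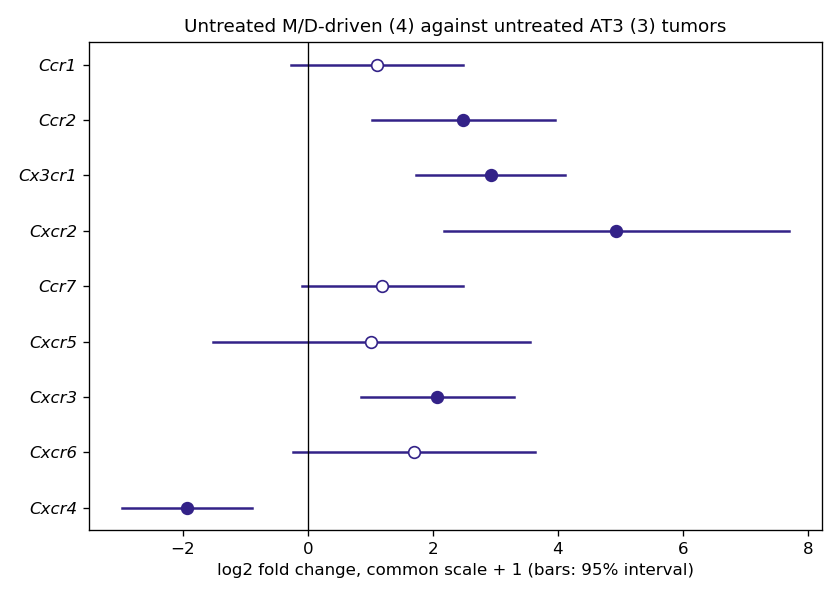
Log2 fold changes of the 9 receptors between 4 untreated M/D-driven and 3 untreated AT3 tumors on the common scale plus 1, with 95% intervals; filled points passed both thresholds. *Cxcr2* lay farthest to the right (4.93), and *Cxcr4* was the only receptor below 0 (−1.93).

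The second question was whether NAM goes along with other receptor levels. In M/D-driven tumors, 0 of the 9 receptors were higher and 0 were lower with NAM, where 6.22% of the 21700 genes tested passed the thresholds (3.03% higher, 3.19% lower). The values of the groups overlapped for all 9 receptors, while they did not for 4.43% of all genes. Regardless of the fold change, 0 of 9 receptors reached an unadjusted p of 0.05 with limma, against 6.71% of all genes, and 0 reached an adjusted p of 0.05, against 0.00461%. *Cxcr4* passed the thresholds with edgeR and with DESeq2. The median log2 fold change was −0.11 over the receptors and 0.01 over all genes. Intervals were wide, and that of *Cxcr2* ran from −4.90 to 1.37. Beside the receptors, 2 of 7 natural killer cell genes and 2 of 5 adipocyte genes were higher, 1 of 10 neutrophil genes was lower, and 0 of 12 pan-leukocyte, 11 T cell, 8 B cell, 7 precursor B cell, 9 macrophage, 6 monocyte, 8 dendritic cell, 10 epithelial and 7 endothelial or fibroblast genes were called.

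In AT3 tumors, *Ccr2* and *Cx3cr1* were higher with NAM and 0 of the 9 receptors were lower. Here 23.1% of the 19281 genes tested passed the thresholds (12.2% higher, 10.9% lower), so that 2 of 9 is near the share of all genes. That share rested on single tumors, as 3459 genes were higher and 2955 lower without NAM-treated AT3 tumor 1, 3455 and 3310 without untreated tumor 2, and 904 and 714 without NAM-treated tumor 3, in place of 2358 and 2100. Leaving out untreated tumor 1 (1270 and 997), untreated tumor 3 (1443 and 1194) or NAM-treated tumor 2 (979 and 882) also lowered it. Neither receptor passed an adjusted p of 0.05, as did 0.00519% of all genes (1 gene). Without NAM-treated tumor 1, *Cx3cr1* passed it (log2 fold change 1.43, adjusted p = 0.038, limma) along with 2498 genes in all, and without untreated tumor 2, 2520 genes did. The groups did not overlap for *Ccr2* alone, against 22.6% of all genes. Upper quartile scaling turned the split of all genes in AT3 tumors from 2358 higher and 2100 lower into 1460 higher and 3497 lower, with a median log2 fold change of −0.26 in place of −0.05. In M/D-driven tumors the same scaling gave 895 higher and 557 lower genes in place of 658 and 692, with a median of 0.12.

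A test of the difference between the effects of NAM in the 2 models called 0 of the 9 receptors, against 15% of the 22837 genes tested (7.59% higher, 7.45% lower). An adjusted p of 0.05 was reached by 0 genes with limma, where 3440 had an unadjusted p of 0.05 or less, and by 834 genes with DESeq2, which also called *Cxcr4* (log2 1.49, unadjusted p = 0.039). The difference (M/D minus AT3, log2) was 1.25 for *Cxcr4* (standard error 0.68, unadjusted p = 0.090, limma) and −1.40 for *Cx3cr1* (standard error 0.78, unadjusted p = 0.095, limma). A single tumor moved these calls. *Cxcr4* passed without NAM-treated M/D-driven tumor 4 (1.65), untreated AT3 tumor 2 (1.58) or NAM-treated AT3 tumor 1 (1.59). *Cx3cr1* passed without untreated (−1.77) or NAM-treated (−1.88) M/D-driven tumor 4, and *Cxcr2* without NAM-treated M/D-driven tumor 2 (−3.52).

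**Figure D3:**
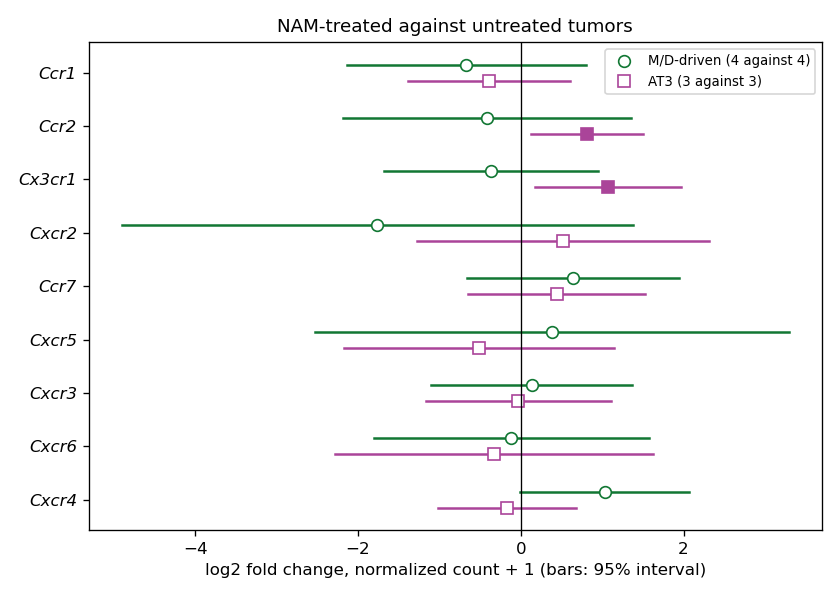
Log2 fold changes between NAM-treated and untreated tumors, on normalized counts plus 1, with 95% intervals, for M/D-driven (green circles, 4 against 4) and AT3 tumors (purple squares, 3 against 3); filled points passed both thresholds. Only *Ccr2* and *Cx3cr1* in AT3 tumors are filled, and the interval of *Cxcr4* in M/D-driven tumors ran from −0.01 to 2.07.

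*Ccr2* takes monocytes out of the bone marrow and toward CCL2 and CCL7. In untreated AT3 tumors its normalized counts were 213, 187 and 352, and in NAM-treated AT3 tumors 498, 369 and 419. All 3 treated tumors thus lay above all 3 untreated ones. The means were 251 ± 89.0 and 429 ± 65.2 (SD, n = 3 each), a log2 fold change of 0.82 (standard error 0.30, 95% interval 0.13 to 1.5, unadjusted p = 0.024, adjusted p = 0.17, limma). The call was lost without untreated tumor 1 (0.73) or 2 (0.63) and without NAM-treated tumor 1 (0.70) or 3 (0.83), as well as with upper quartile scaling (0.61, unadjusted p = 0.088, limma).

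In M/D-driven tumors, *Ccr2* stood at 2666, 690, 2609 and 2161 without NAM and at 284, 3211, 1851 and 1937 with NAM. The groups overlapped, with the lowest value in NAM-treated tumor 1. NAM gave a log2 fold change of −0.42 (95% interval −2.18 to 1.35), and 0.33 (unadjusted p = 0.53, limma) without that tumor. On the common scale, *Ccr2* was higher in untreated M/D-driven than in untreated AT3 tumors (1876 against 308, log2 fold change 2.49, standard error 0.68, adjusted p = 0.010, limma).

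*Cx3cr1*, the fractalkine receptor of patrolling monocytes and tissue macrophages, had normalized counts of 170, 249 and 371 in untreated and 321, 755 and 609 in NAM-treated AT3 tumors. The groups overlapped by 1 value, as NAM-treated tumor 1 lay below untreated tumor 3. The means were 263 ± 102 and 562 ± 221 (SD, n = 3 each), a log2 fold change of 1.08 (standard error 0.40, 95% interval 0.18 to 1.97, unadjusted p = 0.024, adjusted p = 0.17, limma). It was not called without untreated tumor 1 (0.80) and without NAM-treated tumor 2 (0.82) or 3 (0.97). Its ligand *Cx3cl1* had a log2 fold change of 0.37 (unadjusted p = 0.24, limma) in AT3 tumors.

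In M/D-driven tumors, *Cx3cr1* stood at 2322, 4722, 3131 and 1163 without and at 1187, 1477, 1503 and 5499 with NAM. In all, 3 treated tumors lay at the low end of the untreated range, and the fourth lay above all others. This was a log2 fold change of −0.37 (95% interval −1.68 to 0.95), and −0.13 without NAM-treated tumor 1. Untreated M/D-driven tumors exceeded untreated AT3 tumors (2631 against 322 on the common scale, log2 fold change 2.92, standard error 0.55, adjusted p = 0.0013, limma).

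Transcript length and cell type genes moved with the AT3 results. Across 16429 genes of AT3 tumors with a known length, the log2 fold change of NAM followed the length of the transcript (Spearman's rho = 0.59 across genes, which are not independent replicates), against −0.04 in M/D-driven tumors. The transcripts of *Ccr2* (5728 bases) and *Cx3cr1* (4493 bases) were longer than those of 85.8% and 74% of these genes. With each tumor's trend with length and GC content removed, *Ccr2* changed by 0.52 (unadjusted p = 0.097, limma) and *Cx3cr1* by 0.66 (unadjusted p = 0.078, limma), and neither was called. Beside them, 3 of 12 pan-leukocyte genes (*Ptprc*, *Laptm5* and *Lcp1*), 4 of 9 macrophage genes (*Csf1r*, *Adgre1*, *Mrc1* and *Mertk*) and 1 of 6 monocyte genes (*F13a1*) were higher with NAM in AT3 tumors, and 0 genes of these lists were lower. Of all genes, 12.2% were higher and 10.9% lower. Among the other lists, 4 of 7 endothelial or fibroblast (median 0.98), 1 of 8 dendritic cell and 1 of 10 epithelial genes were higher. Lower were 2 of 7 B cell, 1 of 4 precursor B cell and 2 of 10 epithelial genes. Of 11 T cell, 7 natural killer cell, 6 neutrophil and 5 adipocyte genes, 0 were called. The median log2 fold change of the macrophage genes was −0.09 all the same, since 5 of the 9 were below 0. With the length and GC trend removed, 1 of 9 macrophage genes was higher and the median was 0.40, 5 of 12 pan-leukocyte genes were higher (median 0.41, against 0.19 before), and 1 of 6 monocyte genes was (median 0.20, against 0.34). The sums of the macrophage list overlapped, at 36405 to 62884 in untreated and 39552 to 58139 in NAM-treated tumors. So did those of the monocyte list, at 2661 to 9388 and 2683 to 4476, with 0 genes of either list at 0. Their part in the change of *Ccr2* and *Cx3cr1* was not tested beyond the levels relative to leukocyte genes given below.

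*Ccr1*, a receptor of monocytes, macrophages and neutrophils for CCL3, CCL5 and related chemokines, was not called in any of the 4 comparisons. Normalized counts in M/D-driven tumors were 3340, 2359, 3526 and 4140 without and 636, 6737, 1475 and 2860 with NAM. The treated tumors spread over more than the whole untreated range. The effect was −0.67 on the log2 scale (95% interval −2.14 to 0.80), −0.10 without NAM-treated tumor 1 and −1.24 without NAM-treated tumor 2 (unadjusted p = 0.038, limma), where it passed the thresholds. Without NAM-treated tumor 2, 1201 of the 21837 genes tested were higher and 1511 lower, in place of 658 and 692 with all tumors. In AT3 tumors, *Ccr1* had counts of 1414, 599 and 1790 without and 1351, 595 and 840 with NAM, a log2 fold change of −0.39 (95% interval −1.38 to 0.60). Without untreated AT3 tumor 2 it was −0.86 and passed (unadjusted p = 0.039, limma). Between untreated models the log2 fold change was 1.11 (95% interval −0.26 to 2.48), and the same size passed when NAM-treated M/D-driven tumor 1 or 2, which enter that fit for the spread, was left out.

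*Cxcr2* guides neutrophils toward CXCL1, CXCL2, CXCL3 and CXCL5, and its lowest and highest M/D-driven tumors lay farther apart, as a ratio, than those of the other 8 receptors. Untreated M/D-driven tumors held 367, 109, 1380 and 1302 normalized counts, and NAM-treated ones 159, 2087, 31.3 and 49.7. NAM-treated tumor 2 was the highest of the 8, and NAM-treated tumors 3 and 4 were the lowest. On the log2 scale, NAM-treated tumors differed by −1.76 (standard error 1.37, unadjusted p = 0.23, limma), −1.78 without NAM-treated tumor 1 and −3.02 without NAM-treated tumor 2 (unadjusted p = 0.018, adjusted p = 0.33, limma), where it passed the thresholds. As given for *Ccr1*, leaving out that tumor also raised the counts over all genes, to 1201 higher and 1511 lower.

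Untreated M/D-driven tumors 3 and 4 and NAM-treated tumor 2, the highest for *Cxcr2*, were also the highest for its ligands *Cxcl5* and *Cxcl2*. The low tumors were not the same, as NAM-treated tumor 1 was the lowest for both ligands but not for *Cxcr2*. *Cxcl5* had 410, 910, 2315 and 1109 normalized counts without NAM and 2.55, 5142, 10.1 and 39.3 with NAM, and its groups overlapped through NAM-treated tumor 2 alone. *Cxcl2* had 155, 15.2, 710 and 991 without and 4.24, 1224, 7.36 and 19.3 with NAM. With all tumors, the log2 fold changes of *Cxcl1*, *Cxcl2*, *Cxcl3* and *Cxcl5* were −1.66, −2.67, −4.02 and −4.21, and 0 of these 4 genes were called. Without NAM-treated tumor 2, all 4 were (*Cxcl1* −2.72, *Cxcl2* −4.42, *Cxcl3* −6.50, *Cxcl5* −6.41, unadjusted p of 0.00015 to 0.016 and adjusted p of 0.19 to 0.33, limma). In that setting, 1201 of the 21837 genes tested were higher and 1511 lower. *Ppbp*, also on the list of ligands, was not called there (−0.90, unadjusted p = 0.38, limma). Without NAM-treated tumor 1 instead, the log2 fold changes of *Cxcl1*, *Cxcl2*, *Cxcl3* and *Cxcl5* were −0.79, −1.79, −2.62 and −2.91, and 0 were called.

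Some neutrophil genes were highest in the same M/D-driven tumors as *Cxcr2*. *S100a8*, a calcium-binding protein abundant in neutrophils, was at 4244, 214, 132539 and 71665 without and 295, 91728, 60.8 and 529 with NAM. The 3 tumors with the most *S100a8* were also the 3 with the most *Cxcr2*, and the same held for *S100a9*, *Csf3r*, *Mmp8* and *Ly6g*, but not for the other 6 of the 11 neutrophil genes. The sum over the list, to which *Ltf* contributed up to 152786, was 80534 to 454033 in untreated and 4317 to 232561 in NAM-treated M/D-driven tumors, with 0 genes at 0 in all tumors of a group. Of 10 genes of this list tested, 1 was called, *Ltf*, which mammary epithelium also makes and which was lower (−2.30, unadjusted p = 0.048, limma). Their part in the *Cxcr2* values was not tested.

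In AT3 tumors *Cxcr2* was near the floor, at 33.3, 5.08 and 9.77 normalized counts without and 35.2, 9.41 and 16.5 with NAM, or 5 to 29 reads per tumor. The groups overlapped, and a change at this depth would have to be large to be seen (log2 fold change 0.52, 95% interval −1.27 to 2.31). Untreated M/D-driven tumors exceeded untreated AT3 tumors without overlap (728 against 19.8 on the common scale, log2 fold change 4.93, 95% interval 2.17 to 7.69, adjusted p = 0.0079, limma). *Csf3r*, the receptor for granulocyte colony-stimulating factor, differed in the same direction (629 against 57.5, log2 fold change 3.19, adjusted p = 0.0064, limma). It was among 3 of 9 neutrophil genes tested that were higher there, with 6 not called, where 27% of all genes were higher.

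**Figure D4:**
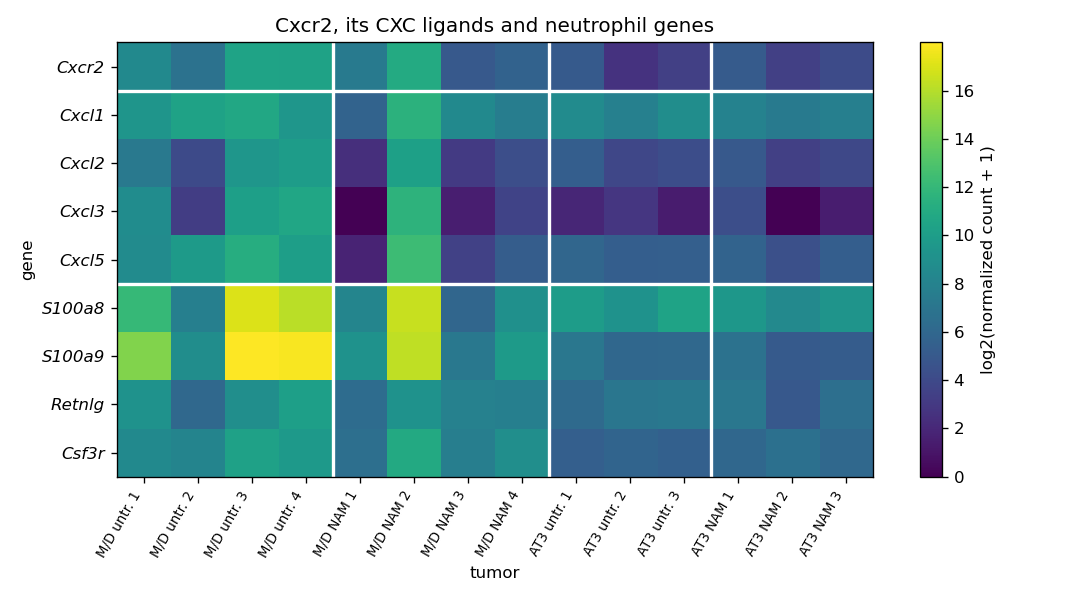
Log2(normalized count + 1) of *Cxcr2* (top row), 4 of its ligands and 4 neutrophil genes in the 14 tumors, from dark (low) to yellow (high); columns are tumors (untr., untreated) and white lines part the groups and gene sets. Untreated M/D-driven tumors 3 and 4 and NAM-treated M/D-driven tumor 2 are bright for most of these genes, with *Cxcr2* at 1380, 1302 and 2087.

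*Ccr7* brings naive T cells and mature dendritic cells to lymph nodes along CCL19 and CCL21. Its normalized counts in M/D-driven tumors were 1079, 362, 570 and 664 without and 2216, 1108, 344 and 1048 with NAM. In all, 3 treated tumors lay near or above the untreated maximum and 1 lay below the minimum. The log2 fold change was 0.65 (95% interval −0.66 to 1.95, unadjusted p = 0.29, limma), 0.25 without NAM-treated tumor 1, and 1.14 without NAM-treated tumor 3 (unadjusted p = 0.035, limma), where it passed the thresholds. Its ligands were not called (*Ccl19* 1.52, unadjusted p = 0.092, and *Ccl21a* 1.12, unadjusted p = 0.35, limma). *Ccl19* was at 51.1 to 140 normalized counts in untreated and 69.4 to 920 in NAM-treated M/D-driven tumors, and was listed at 0 in all 6 AT3 tumors.

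In AT3 tumors, *Ccr7* stood at 167, 128 and 405 without and 413, 169 and 311 with NAM. The groups overlapped (log2 fold change 0.44, 95% interval −0.64 to 1.53). Between untreated models, the log2 fold change was 1.19 (95% interval −0.09 to 2.48). This passed without untreated M/D-driven tumor 2 (1.44) or untreated AT3 tumor 3 (1.69), and at 1.19 without NAM-treated M/D-driven tumor 1 or 3.

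*Cxcr5* was uneven in both groups of M/D-driven tumors. It had 266, 21.7, 50.3 and 16.1 normalized counts without and 661, 28.0, 18.4 and 40.1 with NAM, so that 1 tumor in each group was well above the others. The log2 fold change was 0.38 (95% interval −2.53 to 3.29), and −0.75 (unadjusted p = 0.45, limma) without NAM-treated tumor 1. In that tumor the 8 B cell genes summed to 190987, against 150 to 2015 in the other 7 M/D-driven tumors. The ligand *Cxcl13* was not called with NAM, at a log2 fold change of 0.68 with all M/D-driven tumors and −0.92 without NAM-treated tumor 1. In AT3 tumors, *Cxcr5* was represented by 4 to 22 reads, at 23.2, 14.2 and 15.5 normalized counts without and 26.7, 3.76 and 14.9 with NAM. The models did not differ beyond their spread (log2 fold change 1.01, 95% interval −1.52 to 3.55).

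*Cxcr3*, through which effector T cells and natural killer cells follow the interferon-induced chemokines CXCL9 and CXCL10, had 918, 318, 511 and 315 normalized counts without and 273, 553, 364 and 1247 with NAM in M/D-driven tumors. The groups overlapped almost fully. Their log2 fold change was 0.13 (95% interval −1.10 to 1.37), and 0.44 without NAM-treated tumor 1. AT3 tumors held 60.9, 83.3 and 114 without and 157, 82.8 and 41.3 with NAM, and here too the treated tumors spread around the untreated ones (log2 fold change −0.03, 95% interval −1.17 to 1.10). *Cxcr3* was higher in untreated M/D-driven tumors (477 against 105 on the common scale, log2 fold change 2.07, standard error 0.57, adjusted p = 0.011, limma). Its ligands *Cxcl9* and *Cxcl10* were not called in either model with NAM, with log2 fold changes from −0.49 to −0.22. Without NAM-treated M/D-driven tumor 1, those in M/D-driven tumors turned to 0.44 (*Cxcl9*) and 0.58 (*Cxcl10*), and neither was called.

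*Cxcr6*, carried by resident and effector T cells that meet CXCL16 on macrophages, had 1161, 585, 714 and 412 normalized counts in untreated and 156, 796, 533 and 2191 in NAM-treated M/D-driven tumors. NAM-treated tumor 1 was the lowest and NAM-treated tumor 4 the highest of the 8. The log2 fold change was −0.11 (95% interval −1.80 to 1.57), and 0.55 (unadjusted p = 0.34, limma) without NAM-treated tumor 1. In AT3 tumors the counts were 159, 50.8 and 462 without and 333, 126 and 44.6 with NAM (log2 fold change −0.33, 95% interval −2.29 to 1.63). The models gave 1.70 (95% interval −0.24 to 3.63), which passed without untreated AT3 tumor 3 (2.49) and, at 1.70, without NAM-treated M/D-driven tumor 1. *Cxcr6* lies inside *Fyco1*, a gene on the other strand, and whether counting used the strand is not given in the sources used here. *Fyco1* rose with NAM in AT3 tumors (log2 fold change 1.62, unadjusted p = 0.0076, adjusted p = 0.17, limma), in which *Cxcr6* did not.

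*Cxcr4*, the receptor for CXCL12, is found on most leukocytes and keeps precursor B cells and other hematopoietic cells in the bone marrow. Untreated M/D-driven tumors were close to each other at 3493, 3849, 3585 and 3113 normalized counts. NAM-treated ones stood at 17244, 8322, 5748 and 3177. In total, 3 of 4 treated tumors thus exceeded every untreated tumor, and the fourth lay between the lowest and the next of them. The means were 3510 ± 305 and 8623 ± 6119 (SD, n = 4 each), a log2 fold change of 1.03 (standard error 0.45, 95% interval −0.01 to 2.07, unadjusted p = 0.052, adjusted p = 0.73, limma), which did not pass. The highest value belonged to NAM-treated tumor 1, and without it the log2 fold change was 0.61 (unadjusted p = 0.089, limma). Without NAM-treated tumor 4 it was 1.42 (unadjusted p = 0.0050, limma) and passed. It also passed with edgeR (1.26, unadjusted p = 0.027, adjusted p = 0.59) and DESeq2 (unadjusted p = 0.011, adjusted p = 0.25) on the recovered reads.

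In AT3 tumors, *Cxcr4* had 12370, 6511 and 12865 normalized counts without and 14087, 9039 and 5714 with NAM. The groups overlapped throughout (log2 fold change −0.17, 95% interval −1.02 to 0.68). On the common scale, *Cxcr4* was the only one of the 9 receptors that was lower in untreated M/D-driven than in untreated AT3 tumors, at 3254 ± 295 (SD, n = 4) against 13019 ± 4570 (SD, n = 3). On the log2 scale the fold change was −1.93 (standard error 0.48, 95% interval −2.97 to −0.89, adjusted p = 0.0063, limma), and −1.53 with the values as deposited. *Cxcl12*, its ligand, was higher in untreated M/D-driven tumors (3534 ± 1889 against 546 ± 204 on the common scale, log2 fold change 2.60, standard error 0.39, adjusted p = 0.00033, limma). With NAM, *Cxcl12* was not called in M/D-driven (0.21) or AT3 tumors (0.65). *Ackr3*, a scavenger receptor that removes CXCL12, was lower with NAM in M/D-driven tumors (4613 ± 1352 against 1987 ± 1478, SD, n = 4 each, log2 fold change −1.55, unadjusted p = 0.030, adjusted p = 0.73, limma). It was not called without NAM-treated tumor 1 (−1.19, unadjusted p = 0.074, limma).

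Receptor levels were also set against the leukocyte content of the tumor, as the log2 of the receptor minus the mean log2 of the 12 pan-leukocyte genes of the same tumor. Of 18 comparisons of NAM-treated with untreated tumors (9 receptors in 2 models), 0 reached p = 0.05 in exact two-sided permutation tests, and the smallest adjusted p was 0.90. With 3 tumors against 3, no exact p below 0.10 is possible, and with 4 against 4 none below 0.029. *Ccr2* in AT3 tumors was the one receptor whose groups did not overlap, at −2.59 ± 0.13 without and −2.03 ± 0.16 with NAM (SD, n = 3 each, exact permutation p = 0.10). The difference of 0.56 may be read beside the 0.82 of *Ccr2* itself. *Cx3cr1* in AT3 tumors differed by 0.82 on this scale (exact permutation p = 0.30). *Cxcr4* in M/D-driven tumors lay at −0.72 ± 0.18 without and −0.13 ± 0.72 with NAM (SD, n = 4 each, exact permutation p = 0.20). NAM-treated tumor 1 stood out less for *Cxcr4* here (−0.2) than NAM-treated tumors 2 and 3 (both 0.4).

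In AT3 tumors, *Cxcr4* stood above the leukocyte genes, by 2.80 ± 0.34 in untreated and 2.36 ± 0.46 in NAM-treated tumors (SD, n = 3 each). It was the only receptor above them in all 6 AT3 tumors. The other receptors were below the leukocyte genes in their group means in both models.

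**Figure D5:**
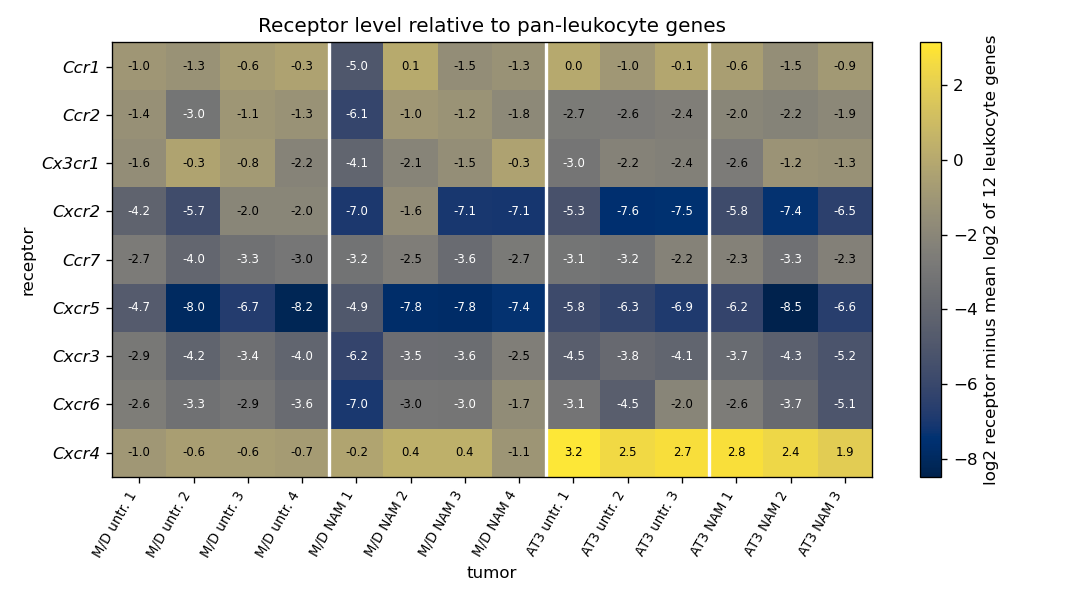
Log2 of each receptor minus the mean log2 of 12 pan-leukocyte genes in the same tumor, with the value printed in each cell and white lines between groups (untr., untreated). *Cxcr4* is positive in all 6 AT3 tumors, and NAM-treated M/D-driven tumor 1 is low for *Ccr1*, *Ccr2*, *Cxcr3* and *Cxcr6*.

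The chemokines themselves, the remaining receptors and the signalling genes behind them were followed as lists. Of 23 ligands, 0 were called with NAM in M/D-driven tumors (median log2 fold change −0.28). NAM-treated tumor 1 had the lowest value of the M/D-driven tumors for 14 of these ligands and the highest for 3. Its sum over the ligands was 34128, against 63234 to 117273 in the other 7 M/D-driven tumors. The median without that tumor is not given here. In AT3 tumors, 1 of 21 tested was lower, *Ccl8*, a monocyte chemoattractant (9475 ± 5401 against 3745 ± 1911, SD, n = 3 each, log2 fold change −1.23, unadjusted p = 0.048, adjusted p = 0.20, limma). There, 19 of 21 log2 fold changes were below 0, with a median of −0.62 against −0.05 over all genes. *Ccl2* (−0.62) and *Ccl7* (−1.0), the ligands of *Ccr2*, were among them and were not called. Fold changes in AT3 tumors also followed transcript length (Spearman's rho = 0.59 across genes). Values of the ligands with that trend removed are not given here, and its part in the ligand values was not tested. Between untreated models, 4 of 23 ligands were higher in M/D-driven tumors (*Ccl19*, *Cxcl3*, *Cxcl5* and *Cxcl12*) and 0 were lower, where 27% and 24.4% of all genes were.

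Of 14 other chemokine receptors, *Ackr3* alone was called in M/D-driven tumors that received NAM, a share near the 6.22% of all genes. In AT3 tumors 0 of 11 tested were called, against 23.1% of all genes. All 14 had a log2 fold change above 0 between untreated M/D-driven and untreated AT3 tumors (median 2.05, against 0.08 over all genes), and 7 were called, a share near the 51.4% of all genes. The largest was *Ackr4*, a scavenger of CCL19 and CCL21, at 1248 ± 450 (SD, n = 4) against 14.2 ± 15 (SD, n = 3) on the common scale (log2 fold change 6.75, adjusted p = 3.9e-05, limma). Among the others were *Ccr4* (4.42) and *Ccr6* (3.56) of T cell subsets and *Xcr1* (3.13) of cross-presenting dendritic cells.

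Of 19 signalling genes, 0 were called with NAM in M/D-driven tumors. In AT3 tumors, 6 were higher and 1 was lower (median 0.53), where 12.2% and 10.9% of all genes were. The higher ones included *Pik3r5* (log2 fold change 1.67), a regulatory subunit of the phosphoinositide 3-kinase that answers to G proteins, and *Dock2* (1.56), which activates Rac in moving lymphocytes. *Arrb1* (1.30), *Elmo1* (1.00), *Pik3cg* (0.84) and *Prex1* (0.75) made up the rest. *Rgs1*, a brake on G protein signalling, was lower (−1.10). Adjusted p values of these 7 genes were 0.17 to 0.19 (limma). With the length and GC trend removed, 3 of the 19 were higher and 1 was lower. Between untreated models, 13 were higher in M/D-driven tumors and *Rgs1* was lower (−1.45), with a median of 1.24 and beside 27% and 24.4% of all genes.

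Genes with the pattern most like that of each receptor were sought among 15405 genes over the 14 tumors, as the smallest root mean squared difference of log2 values centered within each model. The T cell kinase gene *Zap70* was nearest to *Cxcr3* (0.29), and *Cd8b1*, *Cd8a* and *Cd3g* were nearest to *Cxcr6* (0.36 to 0.37). *Ctla4* was nearest to *Ccr7* (0.38), *Sirpb1c* and *Clec5a* to *Ccr1* (both 0.29), and *6030419C18Rik* and *Nectin3* to *Ccr2* (both 0.41). *Tspan33* was nearest to *Cx3cr1* (0.33), *Bdkrb1* and *Il1a* to *Cxcr2* (0.69 and 0.71), and *Gm17767* to *Cxcr5* (0.74). *Ppil1*, *Fam69b* and *Tipin* were nearest to *Cxcr4* (0.33 to 0.35). Among pairs of the 9 receptors, *Ccr1* and *Ccr2* were closest (0.65), followed by *Cxcr3* and *Cxcr6* (0.68) and by *Ccr7* and *Cxcr4* (0.73). The tumors share their libraries in these values, which are descriptions.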

How the data were processed

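Bulk polyA RNA libraries (TruSeq, paired-end) of 14 tumors were analysed, with 1 library per tumor and groups taken from the sample labels. The authors mapped reads with STAR 2.4.0 on mm10, counted those on the constitutive regions of each FAST DB gene, and divided the counts by DESeq2 size factors, within each model. The deposited signal values are these normalized counts, from which whole reads were recovered for 100% of values (tolerance 0.01). Reads amounted to 40936868 to 84178009 per tumor, and 0 columns were left unmapped. Spread between tumors includes counting error.

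Values were compared with limma 3.58.1 (R 4.3.3), with a mean-variance trend, on log2(normalized count + 1), a scale which understates the change of low genes. The filter kept genes that averaged 10 or more in any group compared, and calls required an unadjusted limma p up to 0.05 together with a change of 1.5-fold or more. The study's methods give the same cutoffs for p values of DESeq2. P values were adjusted by the Benjamini-Hochberg method over all genes tested. Models were compared on median-of-ratios size factors computed over the 14 tumors. Levels relative to leukocyte genes were set against each other in exact permutation tests (two-sided), adjusted over 18 tests. Levels per kb used the longest GENCODE vM21 transcript of a gene, not the constitutive regions, so they are approximate. The starts of genes came from RefSeq.

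Alternatives were pseudocounts of 0.5 and 5, no filter or a minimum group mean of 50, TMM and upper quartile scaling, the replicate number as a block, removal of the length and GC trend by a spline with 4 degrees of freedom, 1 fit over 14 tumors, adjusted p, edgeR 4.0.16 (with NAM, 992 higher and 645 lower genes in M/D-driven and 2512 and 2147 in AT3 tumors) and DESeq2 1.42.0 on recovered reads, *Ptprc* in place of the 12 leukocyte genes, and omission of every tumor, 1 at a time. The tests were tested on simulated data. Tables were made with Python 3.11.15 and pandas 2.3.3.

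All 9 receptors are named, and at most 6 called genes per list and comparison, with ligands beside their receptor, and the 3 genes of nearest pattern; neutrophil, leukocyte and macrophage genes beside a result and *Fyco1* were added for that result. Some results are not reported here. Receptors, gene lists and tests were chosen with earlier results of these data known. The labels do not say whether tumors of a group came from separate mice, and p values measure the spread between these tumors.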

Additional observations from a re-analysis of the deposited data

Results flagged for a closer look

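Of the 18 sets of 4 M/D-driven tumors (9 receptors in 2 groups), 4 held a tumor far from the next value. Its distance was above the critical share of the range of its group (Dixon's criterion for 4 values). The criterion was applied to normalized counts, not to their log2, and the 18 sets share the same 8 tumors. Its nominal rate of 1 in 20 therefore cannot be used to judge the count of 4. *Cxcr2* was at 2087 normalized counts in NAM-treated tumor 2, with the next value at 158.7. *Cxcr5* was at 265.9 in untreated tumor 1 (next, 50.31) and at 661.2 in NAM-treated tumor 1 (next, 40.11). *Cx3cr1* was at 5499 in NAM-treated tumor 4 (next, 1503). The groups of AT3 tumors, with 3 tumors each, are too small for this criterion.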

How the results depend on the processing

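For single receptors, 413 values under alternatives other than leaving out a tumor kept their direction and their side of the thresholds, 13 passed anew, 8 no longer passed and 14 turned direction. Part of the 413 could not change, so the count does not measure robustness. With adjusted p, the fold changes are those of the main test. Relative to leukocyte genes, the smallest possible exact p was 0.10 with 3 tumors against 3, and 0.125 (M/D-driven) or 0.25 (AT3) with the block. *Cxcr5*, which had no DESeq2 p in M/D-driven tumors, between models or for the difference of effects, was counted as kept there. In M/D-driven tumors, the count of higher receptors was 1 (*Cxcr4*) and not 0 with no filter, with upper quartile scaling, with the length and GC trend removed, with 1 fit over 14 tumors, with edgeR and with DESeq2. In AT3 tumors it was 1 with upper quartile scaling and 0 with the length and GC trend removed, with adjusted p and with 1 fit over 14 tumors, in place of 2. Between untreated models it was 7 in place of 4 with the values as deposited. For the difference in the effects of NAM it was 1 (*Cxcr4*) with DESeq2 and 0 otherwise. The causes were not tested.

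Directions turned for *Cxcr6* in M/D-driven tumors with edgeR (0.31) and DESeq2 (0.35), for *Cxcr3* in AT3 tumors with edgeR (0.12) and DESeq2 (0.13), for *Cxcr3*, *Cxcr4* and *Cxcr6* in AT3 tumors with the length and GC trend removed (0.30, 0.30 and 0.20, the same with the block), for *Ccr1* in the difference of effects with edgeR (0.23) and DESeq2 (0.31), and, relative to *Ptprc*, for *Ccr7* (−0.27) and *Cxcr2* (−0.19) in AT3 tumors.

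When 1 tumor was left out, the count of higher receptors ranged from 0 to 1 with NAM in M/D-driven tumors, from 0 to 2 in AT3 tumors, from 4 to 7 between untreated models and from 0 to 1 for the difference of effects. That of lower receptors ranged from 0 to 2, from 0 to 1, from 1 to 1 and from 0 to 1. Ranges that crossed 0 with NAM in M/D-driven tumors were −0.72 to 0.55 (*Cxcr6*), −0.29 to 0.46 (*Cxcr3*), −0.75 to 1.21 (*Cxcr5*), −0.87 to 0.33 (*Ccr2*). Ranges that crossed 0 with NAM in AT3 tumors were −0.035 to 1.21 (*Cxcr2*), −0.50 to 0.45 (*Cxcr3*), −0.49 to 0.16 (*Cxcr4*), −1.13 to 0.45 (*Cxcr6*), −1.07 to 0.20 (*Cxcr5*). Ranges that crossed 0 for the difference of effects were −0.25 to 0.75 (*Ccr7*), −0.81 to 0.33 (*Ccr1*), −0.20 to 1.77 (*Cxcr5*), −0.28 to 0.70 (*Cxcr3*), −0.53 to 1.08 (*Cxcr6*). Ranges that crossed 0 relative to leukocyte genes in M/D-driven tumors were −0.74 to 0.69 (*Cxcr5*), −0.045 to 0.42 (*Ccr7*), −1.38 to 0.35 (*Ccr2*), −0.79 to 0.45 (*Cxcr3*), −1.22 to 0.56 (*Cxcr6*). Ranges that crossed 0 relative to leukocyte genes in AT3 tumors were −0.13 to 0.99 (*Cxcr2*), −0.66 to 0.10 (*Cxcr3*), −1.23 to 0.048 (*Cxcr6*).

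Replicate numbers are shared by the groups. Deviations of tumors with the same number correlated at −0.44 to 0.11 in M/D-driven and −0.16 to 0.26 in AT3 tumors, so the numbers were not taken as pairs. With the number as a block, 1 receptor was higher in M/D-driven tumors (*Cxcr4*, 1.03, unadjusted p = 0.045, limma), and 1 with the length and GC trend also removed (1.05). In AT3 tumors the block with the trend removed called *Ccr7* (0.70) and *Cx3cr1* (0.66), and not *Ccr2* (0.52). Over all genes, the block gave 1296 genes at an adjusted p of 0.05 in AT3 tumors in place of 1.

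Over all genes, leaving out 1 tumor gave 395 to 1201 higher and 351 to 1511 lower genes in M/D-driven tumors, the most without NAM-treated tumor 2, and 904 to 3459 higher and 714 to 3310 lower genes in AT3 tumors. M/D-driven tumors gave 1219 higher genes with no filter, 312 with a minimum of 50, 350 with the trend removed, 240 with the block and the trend, 992 with edgeR and 1287 with DESeq2 in place of 658, and 1243 lower genes with 1 fit over 14 tumors in place of 692. AT3 tumors gave 1437 higher and 1186 lower genes with the trend removed and 1524 and 1264 with the block added, in place of 2358 and 2100. With adjusted p, 0 genes were higher and 1 lower in each model and 0 differed in effect, where 3440 had an unadjusted p under 0.05 by limma and DESeq2 gave 834 at an adjusted p of 0.05. Adjusted DESeq2 counts with NAM were 179 (M/D-driven) and 2047 (AT3), and edgeR gave 0 in both.
Depth limits *Cxcr2* and *Cxcr5* in AT3 tumors, with 4 to 29 reads per tumor.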
